A study of Rattus norvegicus with 6 samples.

Results

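The small RNA table of serum exosomes held 867 miRNA sequences, and 129 of them belonged to the class of predicted miRNAs, which have no entry under a known miRNA name. All 129 were taken by this class label alone, without reference to their levels. They carried 121 distinct sequences, because 6 sequences were listed under 14 names. Each predicted miRNA is written here as m, a serial number and the arm of the hairpin it was assigned to, as in m0001-3p, which leaves out the class word that opens its listed name.

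NXT-Exo were circulating exosomes of male Sprague-Dawley rats, aged 6 to 8 weeks and on a normal diet, that received Naoxintong Capsule (NXT), a polyherbal preparation, by gavage at 1000 mg/kg/d. Ctl-Exo came from rats of the same strain, sex, age and diet that received saline at 5 mL/kg/d. Dosing lasted 7 days by the sample titles, whereas a treatment field rose from 7 days for NXT-Exo 1 by 1 day a library to 11 days for NXT-Exo 5, and Ctl-Exo 5 was given 11 days there too. Here 6 libraries, 5 of NXT-Exo and 1 of Ctl-Exo (replicate 5), were compared to ask which miRNAs the exosomes carried after NXT. The labels do not say whether a library came from 1 rat or from pooled serum, so the p-values measure only the spread between these libraries, which may be technical. In bulk exosome RNA, fewer vesicles that carry a miRNA and less of that miRNA per vesicle cannot be told apart.

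MiRNAs are short RNAs that are cut out of a hairpin precursor, and both arms of the hairpin, named 5p and 3p, can yield a mature strand. The mature strand guides a silencing complex to messenger RNAs, mainly through its seed, bases 2 to 8 from the 5′ end. The same hairpin often yields isomiRs, strands that start or stop a few bases away from the annotated one, and a shifted start changes the seed. A predicted miRNA is usually called when reads that match no known miRNA lie on a genome stretch that can fold into such a hairpin. Exosomes are small membrane vesicles that carry miRNAs from many cell types into the blood.

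The 10 predicted miRNAs with the highest mean level carry most of the reads of the class. They are shown in the order of their mean level, as the authors list them with T for U, with the seed in capitals.
m0001-3p: aCCACAGGgtagaaccacggaca
m0002-3p: aCCAAGATaaagactcccaga
m0003-3p: tCAGACAGctgagtcactctgc
m0012-3p: aCAAGCTTaaaggttggggact
m0004-5p: aCCCATAAagtagaaagcacta
m0005-5p: aAAGTGCAcgtgctttgggac
m0006-3p: tACATACCtacatacacacaga
m0007-5p: tGAGGATTacgaagaggatggt
m0010-5p: gTAAACATccttgactggaagctgt
m0014-5p: tGTGGACGtgtcgggggcgc

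The first of them is a near copy of a known miRNA. The sequences below set m0001-3p beside the rat-named miR-140-3p, of a miRNA best known from cartilage, and beside a listed sequence that carries the miR-140 name without the rat prefix, miR-140-y.
m0001-3p: aCCACAGGgtagaaccacggaca
miR-140-3p: tACCACAGggtagaaccacgg
miR-140-y: aCCACAGGgtagaaccacggact
m0001-3p shared 20 consecutive bases with miR-140-3p, started 1 base later and ran 3 bases further, so that its seed is not that of miR-140-3p. It shared 22 consecutive bases with miR-140-y, from the same start and with the same seed. In the RefSeq assembly GRCr8 the 23 bases of m0001-3p occur unbroken in the hairpin of Mir140, at chr19:52375354-52375376 on the plus strand. The hairpin is printed with m0001-3p in capitals.
Mir140: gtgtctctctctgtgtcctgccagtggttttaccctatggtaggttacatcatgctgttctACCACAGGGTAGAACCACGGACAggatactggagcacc

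Listed reads per NXT-Exo library ran from 1168686 to 3781718, and Ctl-Exo 5 had 1890463. Levels are given in CPM, counts per 1000000 listed reads after scaling with edgeR's TMM factors (0.932 to 1.09). A single read equalled 0.261 to 0.782 CPM in the NXT-Exo libraries and 0.544 CPM in Ctl-Exo 5, where the detection floor of 3 reads equalled 1.63 CPM. Intervals and floors cover counting error only. MiRNAs of red blood cells, such as miR-486 and miR-451-5p, summed over 5 listed members to 157726 to 260276 CPM in NXT-Exo, with Ctl-Exo 5 at 210422 CPM, and no marker list had a member at 0 in every library.

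The class was rich in sequences and poor in reads. The predicted miRNAs made up 129 of 867 sequences but 22282 reads over the 6 libraries, which is 0.143% of all listed reads. The 427 rat-named miRNAs held 95.1% and the 311 sequences with a miRNA name but no rat prefix, called unprefixed here, held 4.72%. The median predicted miRNA had 28 reads over the 6 libraries, against 234 for a rat-named and 49 for an unprefixed one. m0001-3p alone held 12953 reads, or 58.1% of the class. The next 9 by level held 19.1%, and 1 predicted miRNA reached 1000 reads, compared with 36.1% of the rat-named ones.

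In length the predicted miRNAs resembled mature miRNAs. This is a description of the class, since the length limits used in predicting them are not given in the sources used here. They were 18 to 25 bases long with a median of 22, and 105 of them (81.4%) had 21 to 23 bases, compared with 90.6% of the rat-named and 65.3% of the unprefixed miRNAs. The shortest were m0011-3p and m0087-5p with 18 bases. The longest were m0010-5p, m0020-3p, m0033-3p and m0062-3p with 25 bases. All 4 of the longest shared at least 21 bases with a rat-named miRNA and ran past its 3′ end by 3 or 4 bases.

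**Figure D1:**
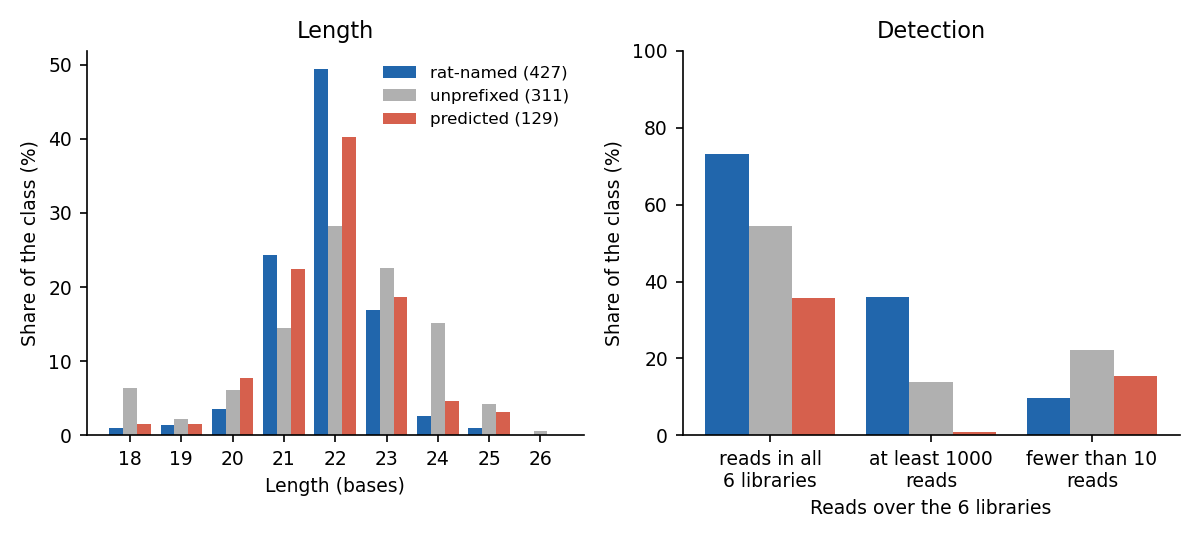
Left, the share of each class of listed miRNA (percent, with the number of sequences in the key) at each length in bases. Right, the share of each class with reads in all 6 libraries, with at least 1000 reads and with fewer than 10 reads over the 6 libraries. The predicted miRNAs peaked at 22 bases as the rat-named ones did, but 35.7% of them had reads in all 6 libraries against 73.1%.

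The first base of a mature miRNA is often U, which the silencing complex favours. It was T, the letter for U in the table, in 63 of the 129 predicted miRNAs (48.8%), compared with 40.3% of the rat-named and 40.5% of the unprefixed ones. A stood first in 35, C in 18 and G in 13. C was the first base of 14.0% of the predicted and 22.2% of the rat-named miRNAs. The median GC content was 54.5% in the predicted, 47.8% in the rat-named and 50.0% in the unprefixed class. These are descriptions of sequences, which are not replicates, and were not tested.

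Both arms were about equally common in the class. The names assigned 68 predicted miRNAs to the 3p arm and 61 to the 5p arm, with medians of 28 and 27 reads. The 3p arm held 17671 reads and the 5p arm 4611, and without m0001-3p the 3p arm held 4718. For 3 of the repeated sequences the assigned arm was not unique, since the same bases stood once as 5p and once as 3p.

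The repeated sequences had identical counts under each of their names, so their reads were entered more than once. They added 8 extra entries and 519 extra reads to the class. The sequence with the most names is shown with the 3 that were assigned to both arms.
m0047-3p, m0048-3p, m0049-3p and m0050-3p: tGATGTCActgtcacatgaggt
m0056-5p and m0057-3p: tCGGCCGCccctgctccggga
m0036-5p and m0037-3p: tGCTCACTgtgtgcactcactg
m0073-3p and m0074-5p: aACTGGGAgaaggatgggacact
m0014-5p, among the 10 highest, was listed a second time as m0015-5p. None of the predicted sequences was listed whole under a known miRNA name.

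Of the 129 predicted miRNAs, 46 had reads in all 6 libraries, 22 in 5, 19 in 4, 20 in 3, 19 in 2 and 3 in a single library. The share in all 6 libraries was 35.7%, compared with 73.1% of the rat-named and 54.3% of the unprefixed miRNAs. The 46 held 20716 of the 22282 reads, and the other 83 had a median of 13 reads. Fewer than 10 reads in total were counted for 20 predicted miRNAs and at least 100 for 23.

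The number of predicted miRNAs with reads differed between libraries of unequal depth. It was 103, 98, 97, 79 and 105 in NXT-Exo 1 to 5 and 81 in Ctl-Exo 5, and the lowest number was that of the shallowest library, NXT-Exo 4. The NXT-Exo mean of 96.4 ± 10.3 (SD, n = 5) exceeded Ctl-Exo 5 by 15.4, with 4 of 5 NXT-Exo libraries above it (two-sided exact permutation test over the 6 libraries, p = 0.333). With 5 libraries against 1 the smallest p this test can give is 0.167. Each library was then thinned to the 1168686 reads of the shallowest. The expected numbers became 79 to 90.7 in NXT-Exo, with Ctl-Exo 5 at 76.6. Ctl-Exo 5 thus lay below all 5 (exact permutation p = 0.167, the smallest possible). Before thinning, Ctl-Exo 5 was just above NXT-Exo 4 in the other classes too. It held 358 rat-named miRNAs, against 356 to 392 per NXT-Exo library, and 225 unprefixed ones, against 222 to 271. These classes were not thinned, so a low number in Ctl-Exo 5 is not shown to be particular to the predicted miRNAs.

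Reads in Ctl-Exo 5 were absent for 48 of the 129 (37.2%), compared with 23.2% of all 865 miRNAs with reads, where the other 2 classes have higher median reads than the predicted miRNAs. Of the 48, 8 had reads in all 5 NXT-Exo libraries (6.20% of the class, background 2.20%), and they represent 5 distinct sequences, since 4 of the names are m0047-3p to m0050-3p. The others were m0044-3p, m0062-3p, m0065-5p and m0075-3p, the last 2 of which were singled out after their values were seen. These sequences were rare, with 13 to 35 reads in total, and their mean NXT-Exo levels of 1.10 to 2.41 CPM lay near the 1.63 CPM that 3 reads are worth in Ctl-Exo 5. No predicted miRNA was found in Ctl-Exo 5 alone, and the same held for NXT-Exo 1 and for NXT-Exo 2. NXT-Exo 3, 4 and 5 each held 1 that no other library had.

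The share of listed reads on predicted miRNAs overlapped between the groups. It was 0.144%, 0.160%, 0.130%, 0.155% and 0.135% in NXT-Exo 1 to 5 and 0.137% in Ctl-Exo 5 (exact 95% binomial interval 0.132% to 0.142%), so that Ctl-Exo 5 lay inside the NXT-Exo range. The difference between the NXT-Exo mean of 0.145% ± 0.0126 (SD, n = 5) and Ctl-Exo 5 was 0.00774 percentage points (two-sided exact permutation p = 0.833). Without m0001-3p the NXT-Exo mean was 0.0595% ± 0.00456 (SD, n = 5) and Ctl-Exo 5 was 0.0635%, which turned the difference to -0.00401 percentage points, with 1 of 5 NXT-Exo libraries above Ctl-Exo 5 (exact permutation p = 0.5).

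**Figure D2:**
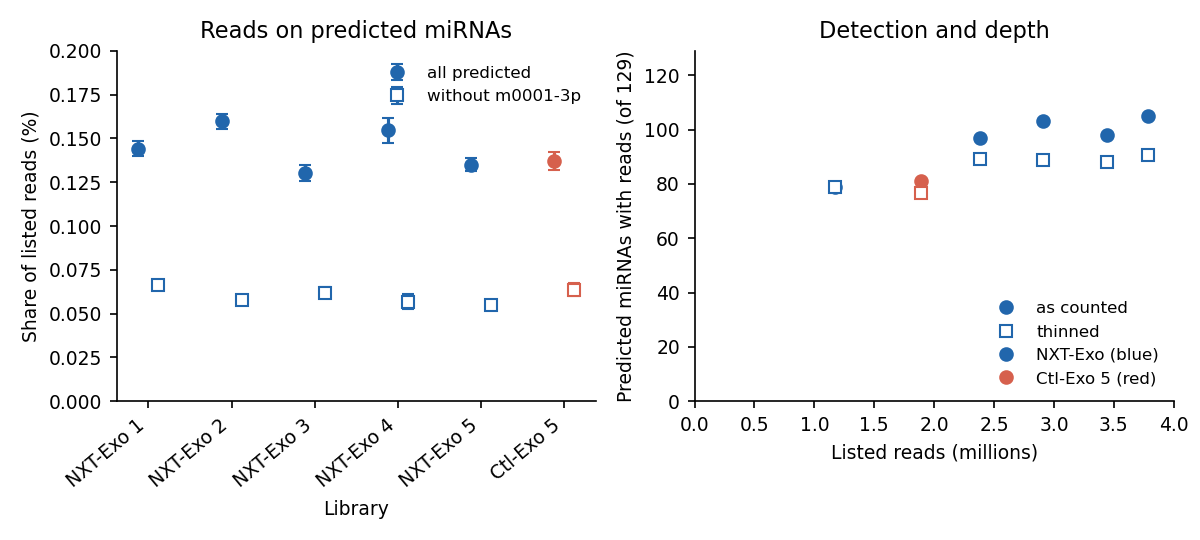
Left, the share of listed reads on predicted miRNAs in each library (percent) with all 129 (filled circles) and without m0001-3p (open squares), with exact 95% binomial intervals. Right, the number of the 129 with reads against the listed reads of the library (in units of 1000000), as counted (filled) and after thinning to the shallowest library (open), with NXT-Exo in blue and Ctl-Exo 5 in red. The shares were 0.130% to 0.160% in NXT-Exo, with Ctl-Exo 5 at 0.137%, and the numbers fell to between 76.6 and 90.7 after thinning.

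The levels of the 10 highest predicted miRNAs fell steeply after the first. m0001-3p, the miR-140-3p isomiR, had 2260, 3512, 1629, 1141 and 3024 reads in NXT-Exo 1 to 5 and 1387 in Ctl-Exo 5. In CPM these were 753, 1058, 732, 892 and 789 against 755, so Ctl-Exo 5 lay inside the NXT-Exo range. The log2 difference, taken between the mean of NXT-Exo and Ctl-Exo 5 after adding 1 CPM to each, was 0.16, and the NXT-Exo libraries had a larger SD, 0.22. Its relative miR-140-3p was at 12096 CPM in NXT-Exo (10511 to 14095) and 9987 CPM in Ctl-Exo 5, below all 5 NXT-Exo libraries.

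The share of m0001-3p among the reads of m0001-3p and miR-140-3p together was 6.69%, 7.65%, 6.21%, 5.95% and 6.15% in NXT-Exo 1 to 5 and 7.03% in Ctl-Exo 5 (exact 95% binomial interval 6.68% to 7.40%). Ctl-Exo 5 thus again lay inside the NXT-Exo range, and the NXT-Exo mean was 6.53% ± 0.681 (SD, n = 5). Of the reads of m0001-3p and miR-140-y together, m0001-3p held 4.37%, 4.93%, 4.13%, 4.66% and 4.05% in NXT-Exo 1 to 5. Here Ctl-Exo 5, at 5.02% (exact 95% binomial interval 4.77% to 5.29%), lay above all 5. That interval covers the share of NXT-Exo 2. How the authors divided reads between sequences that share most of their bases is not given in the sources used here, so these shares depend on that counting.

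Ranks 2 to 10 had means of 15.7 to 44.9 CPM in NXT-Exo. All 10 had reads in all 6 libraries, with Ctl-Exo 5 inside the NXT-Exo range for 4, below it for 3 (background 15% of all 865) and above it for 3 (background 15.3%). m0002-3p was at 57.3, 46.4, 43.6, 42.2 and 34.9 CPM in NXT-Exo 1 to 5 and 56.6 CPM in Ctl-Exo 5, just inside the range. m0007-5p at 15.3 to 31.3 CPM against 28.9 and m0014-5p at 4.69 to 30.0 CPM against 19.1 also enclosed Ctl-Exo 5, and m0014-5p had the widest relative spread of the 10. The groups of these 3 overlapped.

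Ctl-Exo 5 was below every NXT-Exo library for m0003-3p, m0012-3p and m0010-5p. m0003-3p was at 53.0, 40.4, 43.2, 36.7 and 36.3 CPM in NXT-Exo 1 to 5, with Ctl-Exo 5 at 31.0 CPM. m0012-3p was at 28.3, 40.1, 45.0, 35.2 and 38.9 CPM against 24.0 CPM. m0010-5p, the miR-30e-5p isomiR described next, was at 25.3, 23.5, 19.3, 14.9 and 20.1 CPM against 7.62 CPM. The gap to Ctl-Exo 5 was small for the first pair, with log2 differences of 0.42 and 0.62, and larger for m0010-5p at 1.33.

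Ctl-Exo 5 was above every NXT-Exo library for m0004-5p, m0005-5p and m0006-3p. m0004-5p was at 37.3, 25.3, 36.4, 27.4 and 35.2 CPM in NXT-Exo 1 to 5, with Ctl-Exo 5 at 47.4 CPM. m0005-5p was at 36.0, 26.8, 32.4, 39.9 and 21.6 CPM against 46.8 CPM, and m0006-3p was at 37.3, 17.2, 19.3, 23.5 and 14.6 CPM against 45.7 CPM. The groups did not overlap for any of these, and the log2 differences were -0.54, -0.57 and -0.999.

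**Figure D3:**
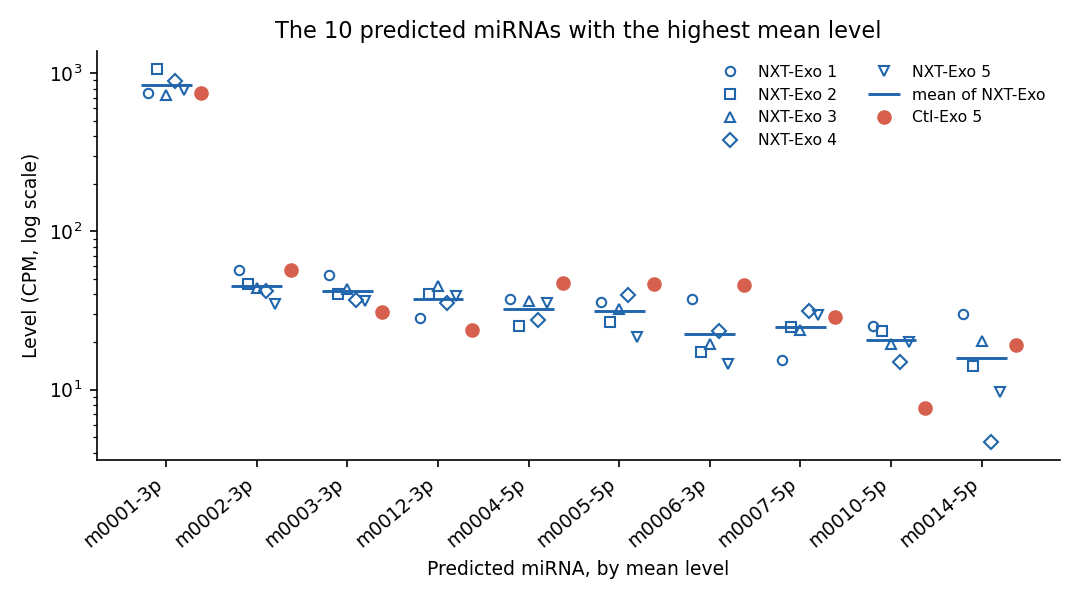
Level (CPM, log axis) of the 10 predicted miRNAs with the highest mean, with an open blue symbol for each NXT-Exo library, a blue line for the mean of the 5 and a filled red circle for Ctl-Exo 5. m0001-3p stands alone at 732 to 1058 CPM in NXT-Exo, and Ctl-Exo 5 lies below the NXT-Exo range for m0010-5p and above it for m0006-3p.

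Across the class, 14 predicted miRNAs shared at least 16 consecutive bases with a listed miRNA, 13 of them with a rat-named one. This minimum and the members it picked were chosen after the sequences had been seen. In addition, 13 lay wholly inside a rat hairpin of RefSeq, which lists 419 hairpins, and 2 of these 13 shared no such run with a listed miRNA. Together these 16 predicted miRNAs held 15055 reads, 67.6% of the class, or 22.5% of the class without m0001-3p. They had a median of 59.5 reads, and the other 113 had a median of 24, shared at most 14 consecutive bases with any listed miRNA and still had reads in all 6 libraries for 37 members.

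Among the 13 with a rat-named relative, 6 began at the same base and kept its seed, and 7 began elsewhere and had another seed. The relatives of the members with the most reads after m0001-3p show both kinds. miR-142-5p marks blood cells, miR-30e-5p belongs to the miR-30 family, and miR-122-3p is the passenger strand of the main liver miRNA.
m0004-5p: aCCCATAAagtagaaagcacta
miR-142-5p: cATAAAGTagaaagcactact
m0010-5p: gTAAACATccttgactggaagctgt
miR-30e-5p: tGTAAACAtccttgactggaag
m0013-3p: aACGCCATcatcacactaaaca
miR-122-3p: aACGCCATcatcacactaa
m0004-5p started 3 bases before miR-142-5p and lies in the Mir142 hairpin at chr10:73055116-73055137 (GRCr8, plus strand). m0010-5p started 1 base after miR-30e-5p and ran 4 bases further, at chr5:139637500-139637524 on the minus strand in Mir30e. m0013-3p began where miR-122-3p does and ran 3 bases further, at chr18:61028867-61028888 on the plus strand in Mir122.

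The other 3 of the 25-base sequences were 3′ extensions too. miR-330-3p is the relative of m0020-3p, miR-320-3p, which is made without the Drosha enzyme, that of m0033-3p, and miR-92a-3p of the miR-17-92 cluster that of m0062-3p.
m0020-3p: cAAAGCACagggcctgcagagaggt
miR-330-3p: gCAAAGCAcagggcctgcagaga
m0033-3p: aAAAGCTGggttgagagggcgaaaa
miR-320-3p: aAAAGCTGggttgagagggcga
m0062-3p: tATTGCACttgtcccggcctgttga
miR-92a-3p: tATTGCACttgtcccggcctg
m0033-3p and m0062-3p kept the start and seed of their relatives, and m0062-3p was the only predicted miRNA to share a seed with 1 of the 5 most abundant rat-named miRNAs. It was rare beside that relative, with 13 reads against 886864 for miR-92a-3p. m0020-3p and m0062-3p lie in the hairpins of Mir330 at chr1:87961267-87961291 and Mir92a1 at chr15:98588602-98588626 (GRCr8, both plus strand).

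The remaining relatives were miR-181a-2-3p for m0022-3p, miR-341 of the imprinted Dlk1-Dio3 cluster for m0028-3p, miR-674-3p for m0042-3p, miR-3541 for m0043-3p, miR-152-3p for m0069-3p and miR-106b-5p for m0110-5p. m0093-3p shared 21 bases with the unprefixed miR-194-y, of a liver and gut miRNA, and with no rat-named sequence. Counting rat-named and unprefixed relatives, these 14 members formed 23 pairs, and in 19 of them the predicted miRNA had the lower mean level. The distance was large for the most abundant relatives, with m0004-5p at 34.8 CPM over the 6 libraries beside 18231 CPM of miR-142-5p. It was small for m0013-3p, at 8.95 CPM beside 17.3 CPM of miR-122-3p, and m0043-3p with 51 reads exceeded miR-3541 with 6.

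**Figure D4:**
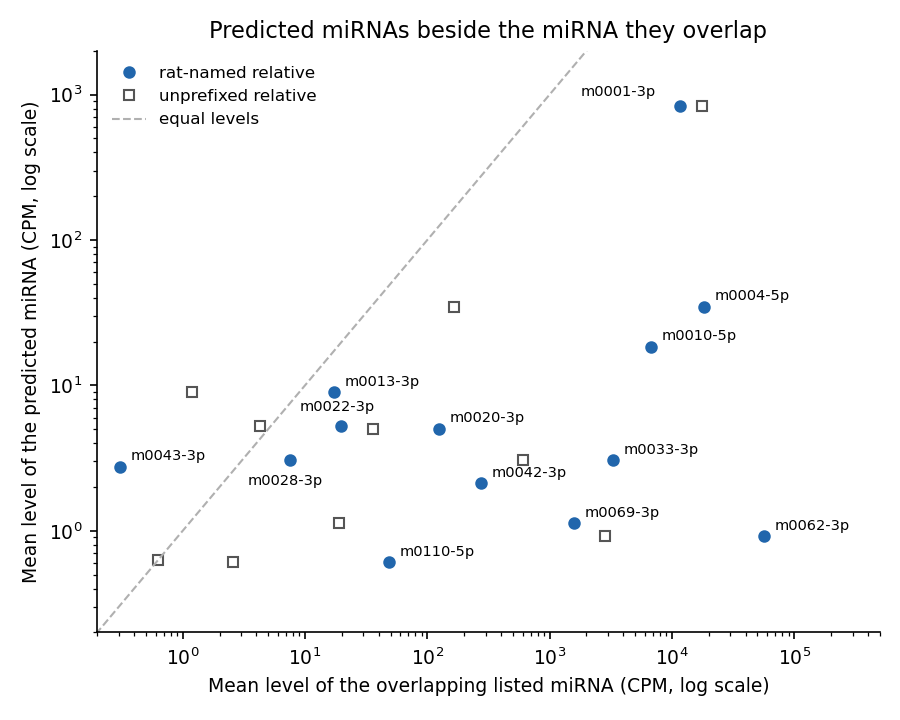
Mean level over the 6 libraries (CPM, both axes log) of each predicted miRNA that shares at least 16 consecutive bases with a listed miRNA, against the level of that miRNA, with filled circles for rat-named relatives (labelled) and open squares for unprefixed ones. The dashed line marks equal levels, and 19 of the 23 points lie below it, with m0043-3p the one rat-named pair above it.

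In 4 cases, m0003-3p, m0030-5p, m0042-3p and m0093-3p, the predicted sequence lay in a known hairpin but wholly outside the mature strand that RefSeq pairs with it here. The last 2 of these overlapped a listed miRNA from the other arm, as given above. The pair without any such relative is shown in its hairpins, with the predicted sequence in capitals.
Mir6329, with m0003-3p: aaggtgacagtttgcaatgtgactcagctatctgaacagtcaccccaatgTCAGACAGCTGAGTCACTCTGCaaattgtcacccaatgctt
Mir3572, with m0030-5p: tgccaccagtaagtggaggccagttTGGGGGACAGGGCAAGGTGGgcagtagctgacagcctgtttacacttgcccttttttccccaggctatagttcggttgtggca
m0003-3p lies at chr8:61334258-61334279 and m0030-5p at chr1:74476488-74476507 (GRCr8, both minus strand). m0003-3p was the third most abundant of the class with 632 reads. m0030-5p had 63 reads, with 6, 13, 9, 0 and 29 in NXT-Exo 1 to 5 and 6 in Ctl-Exo 5.

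m0026-3p matched a known hairpin on the other strand. Its 22 bases are the reverse complement of miR-141-5p, a strand of the epithelial miR-200 family, and its seed is that of miR-200a-3p and miR-141-3p of the same family.
m0026-3p: cAACACTGcactggaagatgga
miR-141-5p: tccatcttccagtgcagtgttg
It had 8, 14, 16, 10 and 27 reads in NXT-Exo 1 to 5 and 12 in Ctl-Exo 5. m0013-3p was likewise found in the reverse complement of a listed hairpin, Mir3591, which lies opposite Mir122.

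Few of the predicted miRNAs had the seed of a listed miRNA. It was shared with any listed miRNA by 19 of the 129 (14.7%) and with a rat-named one by 12 (9.30%), whereas 51.4% of the unprefixed miRNAs had the seed of a rat-named one. The class label itself rests on matching to known miRNAs, so this contrast is a description of how the classes are made up. Of the 19, 9 were the isomiRs described above, and 10 shared the seed without sharing 16 bases. m0087-5p was such a case, with the seed of miR-143-3p, a smooth muscle miRNA, and 14 reads. Within the class 8 seeds occurred more than once, but 6 of these were repeated sequences. The seed of m0006-3p was also that of the different sequence m0027-3p, and m0047-3p to m0050-3p were the one seed group with more than a pair of names.
m0006-3p: tACATACCtacatacacacaga
m0027-3p: tACATACCcacatacacacaga

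NXT-Exo and Ctl-Exo 5 were compared for each miRNA with edgeR's quasi-likelihood test, in which the lone Ctl-Exo library was assumed to vary like the NXT-Exo libraries. Of 736 miRNAs with at least 10 reads, 109 were predicted. None of the 109 passed an adjusted p of 0.05 (Benjamini-Hochberg over all 736), where 0% of all miRNAs passed, and the smallest adjusted p of a predicted miRNA was 0.776. The DESeq2 Wald test also called none. At an unadjusted p below 0.05 edgeR picked 8 of the 109, 4 higher and 4 lower in NXT-Exo, or 7.34% against 5.43% of all 736, and DESeq2 picked 4.

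The 8 were m0006-3p, m0010-5p, m0013-3p and m0018-5p, and m0019-5p, m0021-5p and m0036-5p with its repeat m0037-3p, of which the last 4 names were singled out after their values were seen. m0018-5p had the lowest p, with 5.33, 6.32, 4.95, 3.13 and 6.26 CPM in NXT-Exo 1 to 5 and 19.6 CPM in Ctl-Exo 5, or 4 to 24 reads against 36. Its edgeR log2 fold change was -1.87 (SE 0.57, 95% interval -3.08 to -0.67), and the groups did not overlap. For m0010-5p the log2 fold change was 1.44 (SE 0.53, 95% interval 0.31 to 2.57), and for m0006-3p it was -1.03 (SE 0.45, 95% interval -1.99 to -0.07). All 3 had an adjusted p of 0.776 in edgeR's test and are reported as not passing it.

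As a description without a test, 2-fold apart stands for a log2 difference of at least 1 in either direction together with a Ctl-Exo 5 level outside the range spanned by NXT-Exo. This held for 26 of the 129 predicted miRNAs (20.2%), compared with 11.4% of all 865 miRNAs with reads. Higher in NXT-Exo were 10, against a background of 5.32%, and lower were 16, against 6.13%. The 26 names stood for 23 distinct sequences. The Ctl-Exo 5 level was lower than in any NXT-Exo library for 15 predicted miRNAs (11.6%, background 15%) and higher than in any for 25 (19.4%, background 15.3%). For the other 89 it was within the NXT-Exo range, ties included.

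These counts have to be read with the level of the miRNAs. Among miRNAs with 10 to 1000 reads, 21.3% of the predicted and 15.8% of all were 2-fold apart. Reads were not matched further within this range, and the predicted miRNAs with at least 10 reads had a median of 30. The sequence of m0047-3p to m0050-3p was counted under each of its 4 names. Of the 10 that were higher in NXT-Exo, 8 had 0 reads in Ctl-Exo 5, so that their difference depends on the value given to 0 reads. The 16 lower ones had a median of 14.5 reads, and 12 of them had 0 reads in at least 1 NXT-Exo library. The median log2 difference was 0.36 over the 129 and 0.16 over all 865. With every miRNA without Ctl-Exo 5 reads set against 3 reads, these medians were -0.32 and -0.13. Among those with at least 100 reads the median was -0.26 over 23 predicted miRNAs and 0.03 over all 408.

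**Figure D5:**
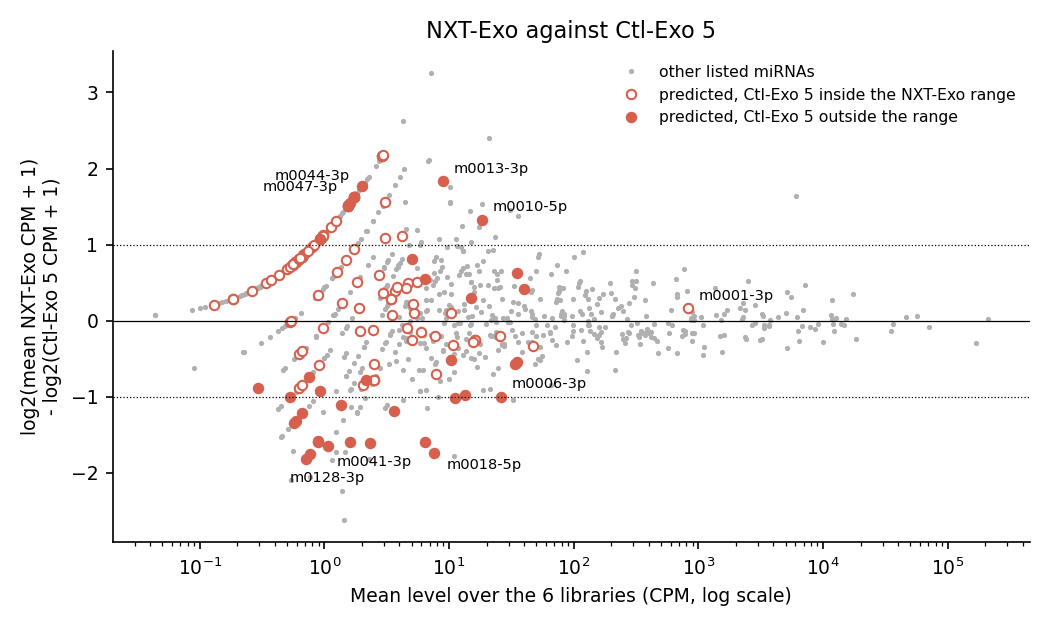
Difference between NXT-Exo and Ctl-Exo 5, on the log2 scale after adding 1 CPM to both levels, against the mean level over the 6 libraries (CPM, log axis). Predicted miRNAs are red circles, filled where Ctl-Exo 5 lay outside the NXT-Exo range, and the other listed miRNAs are grey points. The dotted lines mark 2-fold on this scale, and the curved line of points at the upper left holds miRNAs without reads in Ctl-Exo 5.

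The 5 largest positive differences with Ctl-Exo 5 outside the NXT-Exo range belonged to 3 sequences. m0013-3p had 54, 11, 19, 6 and 65 reads in NXT-Exo 1 to 5 and 4 in Ctl-Exo 5. In CPM these were 18, 3.31, 8.54, 4.69 and 17.0 against 2.18, so the NXT-Exo libraries fell into a high pair and 3 that lay closer to Ctl-Exo 5. The log2 difference was 1.83, with an SD of 0.96 between the NXT-Exo libraries.

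miR-122-3p, the relative of m0013-3p, ranged from 5.47 to 42.7 CPM in NXT-Exo, with Ctl-Exo 5 at 7.62 CPM. m0013-3p made up 29.7%, 18.6%, 42.2%, 46.2% and 43.3% of the reads of both in NXT-Exo 1 to 5 and 22.2% in Ctl-Exo 5 (exact 95% binomial interval 6.41% to 47.6%). This interval covers the share in every NXT-Exo library. The 4 listed liver miRNAs, strands of miR-122 and miR-192, summed to 10889 to 24379 CPM in NXT-Exo, with Ctl-Exo 5 at 7596 CPM. Ctl-Exo 5 was below all NXT-Exo libraries for miR-122-5p and miR-192-5p, with log2 differences of 1.64 and 0.47. It was inside their range, ties included, for miR-122-3p and miR-192-3p. The part of these miRNAs in the level of m0013-3p was not tested.

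The other positive differences came from miRNAs without reads in Ctl-Exo 5.
m0044-3p: tTACCCTAgcctctgcccctct
m0047-3p: tGATGTCActgtcacatgaggt
m0044-3p had 7, 4, 1, 4 and 19 reads in NXT-Exo 1 to 5, at a mean of 2.41 CPM ± 1.75 (SD, n = 5). This mean was 1.48-fold the 1.63 CPM that 3 reads are worth in Ctl-Exo 5. m0047-3p, with the same sequence as m0048-3p, m0049-3p and m0050-3p, had 5, 9, 10, 1 and 3 reads at a mean of 2.09 CPM ± 1.56 (SD, n = 5). That mean was 1.28-fold the same floor. The lowest NXT-Exo library lay under the floor for both, at 0.450 CPM for m0044-3p and 0.782 CPM for m0047-3p. Every NXT-Exo library had reads of both, but at these depths the ratio of the mean to the floor lies below 2-fold.

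m0010-5p was the most abundant of those that were 2-fold higher. It had 76, 78, 43, 19 and 77 reads in NXT-Exo, with 14 in Ctl-Exo 5, and its CPM values above showed no overlap. Its relative miR-30e-5p did not show such a gap, with 6683 CPM in NXT-Exo (5390 to 7592) and 7000 in Ctl-Exo 5, inside that range. m0010-5p therefore made up 0.387%, 0.338%, 0.254%, 0.275% and 0.287% of the reads of both in NXT-Exo 1 to 5 and 0.109% in Ctl-Exo 5 (exact 95% binomial interval 0.0595% to 0.182%). The NXT-Exo shares lay above that interval in all 5 libraries, while the interval covers counting error in 1 library only. The interval of the NXT-Exo 4 share, 0.166% to 0.429%, overlapped that of Ctl-Exo 5.

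m0033-3p was another 3′ extension that was scarce in Ctl-Exo 5, although Ctl-Exo 5 lay inside the NXT-Exo range. It had 15, 17, 9, 0 and 14 reads in NXT-Exo 1 to 5 and 1 in Ctl-Exo 5. The ratio of the pooled NXT-Exo level to Ctl-Exo 5 was 7.40, with an exact 95% counting interval of 1.27 to 297. Its relative miR-320-3p was at 3319 CPM in NXT-Exo (2838 to 3720) and 3175 CPM in Ctl-Exo 5. Of the other 25-base sequences, m0020-3p had 27, 23, 7, 1 and 17 reads against 11 and m0062-3p had 2, 4, 4, 2 and 1 against 0.

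The 5 largest negative differences were those of m0128-3p, m0122-3p, m0018-5p, m0072-5p and m0041-3p, and none of them shared 16 bases with a listed miRNA or lay in a listed hairpin.
m0018-5p: tGGGCCTTggagtctgcggatt
m0041-3p: tACACATGgtacagaaggaaga
m0072-5p: tCTGTGAAggattgagaccatca
m0122-3p: cATCTCCCaccttgtctcc
m0128-3p: tGGGCTCTgtgtcccttggacg
m0041-3p had 8, 0, 8, 0 and 4 reads in NXT-Exo 1 to 5 and 12 in Ctl-Exo 5. m0072-5p had 1, 1, 1, 0 and 6 reads against 7. m0122-3p and m0128-3p had 4 reads in 1 NXT-Exo library, 0 in the other NXT-Exo libraries and 6 reads in Ctl-Exo 5. Only m0018-5p among the 5, with a log2 difference of -1.73 and 112 reads, had reads in every library. The others had 10 to 32 reads in total, and their log2 differences were -1.61 to -1.82.

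m0004-5p, the miR-142-5p isomiR, and its relative were both higher in Ctl-Exo 5 than in any NXT-Exo library. miR-142-5p was at 16347 to 19635 CPM in NXT-Exo, with Ctl-Exo 5 at 20887 CPM, and m0004-5p made up 0.139% to 0.222% of the reads of both in NXT-Exo and 0.226% in Ctl-Exo 5 (exact 95% binomial interval 0.181% to 0.279%). The interval overlaps the upper part of the NXT-Exo range. The 4 listed platelet and myeloid miRNAs, strands of miR-142 and miR-223, summed to 17663 to 21371 CPM in NXT-Exo, with Ctl-Exo 5 at 22904 CPM. Most of this sum was miR-142-5p itself. Ctl-Exo 5 was also above all NXT-Exo libraries for miR-223-3p. It was inside their range for miR-142-3p and below all of them for miR-223-5p. The part of these miRNAs in the level of m0004-5p was not tested.

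The shortest members did not differ beyond their spread. m0011-3p had 17, 52, 17, 17 and 40 reads in NXT-Exo 1 to 5 and 18 in Ctl-Exo 5, or 5.67 to 15.7 CPM against 9.80. m0087-5p had 2, 5, 0, 2 and 4 reads against 1. In both cases Ctl-Exo 5 lay inside the NXT-Exo range.

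Replicate NXT-Exo libraries varied by more than counting noise for most of the better covered predicted miRNAs. The chi-square of the 5 NXT-Exo counts per degree of freedom, which would be near 1 for counting noise alone, had a median of 4.24 over the 23 with at least 100 reads and ranged from 0.480 to 64.5. It was under 2 for 5 of them, m0018-5p and m0010-5p included, and highest for m0001-3p. At an equal relative spread this measure rises with the number of reads, so it does not rank the members by variability. The log2 SD between NXT-Exo libraries was 0.22 for m0001-3p, with 12953 reads, 0.34 for m0018-5p, with 112, and 0.28 for m0010-5p, with 307. Among miRNAs with 100 to 1000 reads the median was 3.79 for 22 predicted and 3.99 for 111 rat-named ones.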

How the data were processed

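Circulating exosomes were isolated from rat serum by ultracentrifugation, and small RNA libraries were prepared with the TruSeq Small RNA kit. Per the labels, ACGT101-miR was used to discard adapter dimers, reads of low complexity and other RNA families. For every sequence and library the authors deposited a raw count and a TPM value. The deposited TPM proved to be the count scaled by 1 factor per library, with 0.01 in place of 0, and the listed sequences covered 86.0% to 88.3% of the library totals behind these factors. The submitters' processing notes name the genome build Rnor_6.0. How miRNAs were predicted, and with which aligner and miRNA database, is not given in the sources used here. RefSeq sequences and coordinates are of GRCr8, and no coordinates were converted.

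The 8 columns of counts and TPM under the names of 4 further Ctl-Exo libraries were not used here. All members were taken by their class label. Members and lists were chosen with earlier results of these data known. Named members were the 10 with the highest mean CPM, the 5 with the largest difference in each direction among those with 10 or more reads whose NXT-Exo range did not include Ctl-Exo 5, those passing the test, the shortest and longest, those with the seed of 1 of the 5 most abundant rat-named miRNAs, and seed groups of 3 or more. Members in all 6 libraries exceeded 15 names and were counted. Exceptions are stated where they occur.

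Counts were fitted over all rows with at least 10 reads by edgeR 4.0.16 (quasi-likelihood, TMM, Benjamini-Hochberg) in R 4.3.3, with DESeq2 1.42.0 as an alternative. The fit was also run on simulated data with large changes and a common spread for all miRNAs. That run does not show which differences could be found in these libraries. Differences without a test used a pseudocount of 1 CPM. Other steps used Python 3.11.15, numpy 2.4.6, pandas 2.3.3, scipy 1.17.1 and matplotlib 3.10.9. No pair of libraries had identical counts, so each was counted as 1 sample, which does not show that they are independent. Chi-square per degree of freedom between pairs was 28.5 to 194, highest between NXT-Exo 1 and other NXT-Exo libraries. The lowest was that of NXT-Exo 2 and Ctl-Exo 5, below the 31.0 of the closest NXT-Exo pair, NXT-Exo 2 and 3. Alternatives were other pseudocounts, scalings, filters, the median in place of the mean, thinning, and leaving out each NXT-Exo library.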

Additional observations from a re-analysis of the deposited data

Results flagged for a closer look

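In 25 sets of NXT-Exo values, the levels of named miRNAs and the class totals, 4 had 1 library whose gap to the nearest other library, divided by the whole range, was above Dixon's critical value of 0.71 for 5 libraries. Chance alone flags about 1 in 20 sets of normally distributed values, a rate that does not hold for read counts as low as those of these 4. For m0033-3p, the 3′ extension of miR-320-3p, the gap was 0.713, with NXT-Exo 4 at 0 reads and the rest of NXT-Exo at 3.65 to 5.12 CPM. For m0072-5p it was 0.713 as well, with NXT-Exo 5 at 1.56 CPM and the others at 0 to 0.450 CPM. For m0122-3p and m0128-3p it was 1, as it must be for any miRNA with reads in a single NXT-Exo library. These reads were at 1.33 CPM in NXT-Exo 1 and at 1.04 CPM in NXT-Exo 5. All 4 were rare, with 10 to 56 reads over the 6 libraries, and NXT-Exo 4, in which 1 read was worth 0.782 CPM, was the shallowest library.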

How the results depend on the processing

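The number of predicted miRNAs called by edgeR stayed at 0 with no filter, with filterByExpr, with DESeq2 size factors, with listed totals, with the DESeq2 test, with 1 entry per distinct sequence and without each NXT-Exo library (0 to 0). The number at an unadjusted p below 0.05 was 8, and it was 3 without NXT-Exo 1, 5 without NXT-Exo 2, 3 or 5, 9 without NXT-Exo 4, 4 with filterByExpr or the DESeq2 test, 6 with listed totals, 7 with 1 entry per distinct sequence and 8 with no filter or DESeq2 size factors. The number 2-fold apart, 26, was 24 to 32 without each NXT-Exo library and 23 with 1 entry per distinct sequence, an alternative added after the data had been seen. It was 0 with a pseudocount of 10 CPM, which shrinks differences of miRNAs near that level, and 43 (27 higher, 16 lower) without the condition on the range. With a pseudocount of 0.1 CPM it was 32 (10 higher, 22 lower). The difference in the share of reads, 0.00774 percentage points, was 0.00398 to 0.0114 without each NXT-Exo library, lowest without NXT-Exo 2, and reversed to -0.00401 without m0001-3p. The difference in the number with reads, 15.4, was 13.2 to 19.8 without each NXT-Exo library, 10.6 at a minimum of 3 reads and 10.5 after thinning. For 26 named miRNAs, 237 of 260 alternative log2 differences stayed within 1 SD of the NXT-Exo values. The other 23 came with pseudocounts of 0.1 (9) or 10 (14), and 1 changed sign, that of m0011-3p, to -0.07 without NXT-Exo 2.

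No paired analysis was possible because replicate number 5 is the one that both groups hold. With 1 Ctl-Exo library the spread of that group is unknown. The median predicted miRNA had 28 reads over the 6 libraries, and the smallest detectable difference was not measured.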
